A study of Mus musculus with 18 samples.

Results

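The genes of glucose use described here are 35 members of 46983 genes in the deposited expression table, taken by matching their symbols. They comprise 2 glucose transporters, 3 genes of the hexokinase and isomerase steps, 3 phosphofructokinases, 4 bifunctional PFKFB enzymes, 9 genes from aldolase to pyruvate kinase, and 4 genes of lactate formation and transport. The others are 2 subunits of pyruvate dehydrogenase, its 4 kinases and 4 enzymes of the pentose phosphate pathway. All 35 were found and all 35 passed the filter on low values. They were followed in lipochondrocytes, the cells of mouse ear cartilage that store lipid, at postnatal days 8, 10, 13, 21 and 33 (P8, P10, P13, P21 and P33), and in adipocytes of the inguinal fat pad at P33. Each of these 6 groups had 3 libraries, 18 in all. The comparisons are those the design implies, between neighbouring stages and with the adipocyte control. All 18 libraries, the adipocytes included, are labelled as Wnt1-Cre2;TdTomato on a C57BL/6 background. Wnt1-Cre2 is a Cre line active in the neural crest, and the TdTomato reporter marks the cells in which Cre has acted. Lipochondrocytes of P8, P10 and P13 were digested out with collagenase and passed through a cell sorter on a gate for high TdTomato. Those of P21 and P33, like the adipocytes, were instead taken as the fraction that floats in a low-speed spin. Age and isolation therefore cannot be told apart between P13 and P21. The labels do not say whether the replicates are separate animals, so p-values measure the spread between these libraries, which may be technical.

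Glycolysis breaks glucose down to pyruvate in the cytosol, with its main control points at glucose entry, at hexokinase, at phosphofructokinase and at pyruvate kinase. PFKFB enzymes make and remove fructose 2,6-bisphosphate, a strong activator of phosphofructokinase. Pyruvate either becomes lactate through lactate dehydrogenase or enters mitochondria and becomes acetyl-CoA through pyruvate dehydrogenase, which the PDK kinases switch off. The pentose phosphate pathway branches off at glucose 6-phosphate, and its oxidative enzymes G6pdx and Pgd make NADPH, which fatty acid synthesis consumes. Cartilage has no blood vessels and lives largely on glycolysis, whereas white adipocytes use glucose for triglyceride glycerol and, with NADPH, for making fatty acids. In bulk samples such as these, fewer cells of a type and less RNA per cell cannot be told apart.

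The promoters of 4 members on which the results below turn are given first, chosen after their values were seen. Slc2a1 and Aldoc were the members below all 15 lipochondrocyte libraries in adipocytes, and Ldha and Ldhb were the isozymes that moved in opposite directions between P13 and P21. The sequences are from RefSeq on GRCm38.p6 and run from 250 bases before to 50 bases after the start. Slc2a1 is shown at chr4:119108495-119108794 on the plus strand. Aldoc is shown at chr11:78322823-78323122 on the plus strand, the first of 2 listed starts. Ldha is shown at chr7:46845554-46845853 on the plus strand, also the first of 2. Ldhb is shown at chr6:142507908-142508207 on the minus strand. Each is written 5′ to 3′, and capitals mark ACGTG and GCGTG, the core letters of the hypoxia response element, on either strand (CACGT and CACGC on the other). A CACGTG matches on both strands.
Slc2a1: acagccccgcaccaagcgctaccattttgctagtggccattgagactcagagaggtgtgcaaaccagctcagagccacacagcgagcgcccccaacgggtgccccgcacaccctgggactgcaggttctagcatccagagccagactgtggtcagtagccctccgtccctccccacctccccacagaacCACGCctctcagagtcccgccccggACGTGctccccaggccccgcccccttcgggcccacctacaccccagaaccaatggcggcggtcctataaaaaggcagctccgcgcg
Aldoc: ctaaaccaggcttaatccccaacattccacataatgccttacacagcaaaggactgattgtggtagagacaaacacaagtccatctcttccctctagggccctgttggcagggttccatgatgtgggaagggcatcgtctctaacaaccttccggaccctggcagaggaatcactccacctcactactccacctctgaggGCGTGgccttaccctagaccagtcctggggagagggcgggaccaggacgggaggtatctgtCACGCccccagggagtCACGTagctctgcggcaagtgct
Ldha: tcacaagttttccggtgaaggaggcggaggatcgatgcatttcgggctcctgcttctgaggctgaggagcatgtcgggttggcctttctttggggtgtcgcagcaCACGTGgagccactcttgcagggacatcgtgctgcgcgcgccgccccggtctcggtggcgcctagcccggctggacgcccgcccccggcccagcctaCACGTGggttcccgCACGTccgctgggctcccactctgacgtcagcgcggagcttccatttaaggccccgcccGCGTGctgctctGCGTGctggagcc
Ldhb: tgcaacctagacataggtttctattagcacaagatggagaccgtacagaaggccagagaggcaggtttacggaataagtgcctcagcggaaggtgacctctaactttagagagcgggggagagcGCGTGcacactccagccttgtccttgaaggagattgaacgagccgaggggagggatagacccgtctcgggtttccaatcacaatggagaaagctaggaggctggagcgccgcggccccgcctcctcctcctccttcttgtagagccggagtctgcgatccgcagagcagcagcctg
Counted once for each strand, these windows hold 2 matches in Slc2a1, 3 in Aldoc, 7 in Ldha and 1 in Ldhb. The second listed starts, not shown, hold 2 matches for Ldha and 1 for Aldoc. Of 54 listed promoters of 34 members, 42 (77.8%) held at least 1 match, against 14380 of all 32851 listed promoters (43.8%). Base composition was not matched between these sets, and a match describes letters in a window, not a site in use. Slc2a3 was not in the promoter table.

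The libraries held 12461965 to 27640142 total reads each. Marker sums fitted the labelled cells. The 11 chondrocyte markers summed to 24485 to 26886 FPKM (fragments per kilobase of transcript, scaled to mapped reads) at P33. In adipocytes they summed to 4.86 to 6.94 FPKM. Cytl1 made up most of the P33 sum, with 16368 to 20673 FPKM. Col2a1, also in the list, had 189 to 245 FPKM at P33 and 4370 to 6549 at P8. The 10 adipocyte markers summed to 4.89 to 28.7 FPKM over the lipochondrocyte libraries and to 90825 to 96664 FPKM in adipocytes. The adipocyte fraction also carried endothelial markers (10 genes, 3.08 to 15.2 FPKM in lipochondrocytes and 823 to 882 FPKM in adipocytes) and macrophage markers (10 genes, 2.64 to 65.7 FPKM in lipochondrocytes and 807 to 870.4 FPKM in adipocytes), whose part in the differences below was not tested. The 7 brown fat markers summed to 3.22 to 231.7 FPKM in lipochondrocytes and 432 to 458 FPKM in adipocytes. Among them, Ucp1 had 36.3 to 37 FPKM in adipocytes and 0 in every lipochondrocyte library. Dio2 went the other way, with 1.4 to 1.89 FPKM at P33 and 0.27 to 0.35 in adipocytes. The part of brown fat markers was not tested. The 10 fibroblast and perichondrium markers instead summed to 5154 to 9293 FPKM at P33, 5267 to 9733 at P21 and 399 to 414 in adipocytes. Col1a1 and Col1a2 made up most of the P33 and P21 sums. Dpt, also in the list, had 8.41 to 12.7 FPKM at P33 and 50.7 to 60.7 in adipocytes. The part of these markers in the differences below was not tested either. Mitochondrial transcripts took 3.67 to 5.96% of the FPKM in lipochondrocytes and 23.3 to 25.5% in adipocytes. The third P33 replicate stood apart from the other P33 libraries in several genes, Slc2a1 and Gpi1 among them, and the third replicates of P21 and P33 were the highest of their groups in 16 skeletal muscle markers, so results that change without them are given both ways. In the annotation, 14 members share exonic bases with another gene and 6 with one that exceeds 5 FPKM in some library, each on the opposite strand: Pfkp with Pitrm1, Pfkfb1 with Apex2, Aldoa with Fam57b, Tpi1 with Spsb2, Gapdh with Iffo1 and G6pdx with Ikbkg. Whether the counting used strand is not given in the sources used here, so reads over these bases are uncertain.

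Set against adipocytes of the same age, likewise taken by flotation, P33 lipochondrocytes had lower transcript levels at most steps of glucose use and higher levels at a few. Of the 35 members, 22 fell, 5 rose and 8 did not pass the test. The test was limma on log2(FPKM + 1), with genes called at a Benjamini-Hochberg adjusted p under 0.05. The background was 68.5% of all 13815 genes called, 44.5% lower and 24% higher. Differences are in log2(FPKM + 1), lipochondrocytes minus adipocytes or later minus earlier stage. The members that rose were Slc2a1, Aldoc, Pfkm, Pfkfb4 and Pdk3. The median difference of the members was -1.26, and that of all genes -0.28. Rescaling libraries by the median of ratios shifts the median of all genes to -0.02. The split of the members was then 7 higher and 19 lower and their median -0.91. Of all 13815 genes, 4188 were then higher and 4825 lower. The 2 groups did not overlap for 27 members, beside 70.7% of all genes. Between P21 lipochondrocytes and the same adipocyte libraries, 22 members fell, 7 rose and 6 did not pass. Of all genes, 67.5% were called, 43.1% lower and 24.5% higher. The median was -1.06 for members and -0.25 for all genes. After rescaling 8 members were higher and 18 lower, beside 4105 and 4768 of all 13815 genes. P21 and adipocytes did not overlap for 30 members, beside 73.5% of all genes. Both comparisons share the adipocyte libraries. Other lists moved with them: 12 immediate-early and stress genes of the dissociation response summed to 77 to 95.2 FPKM at P33, 106 to 181 at P21 and 5064 to 5211 in adipocytes, and 7 erythroid markers to 43.6 to 147 FPKM at P33, 84.3 to 451 at P21 and 962 to 1031 in adipocytes. Their part in the members' differences was not tested. The members together took 0.219 to 0.282% of all FPKM at P33, 0.312 to 0.34% at P21 and 0.786 to 0.834% in adipocytes.

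**Figure D1:**
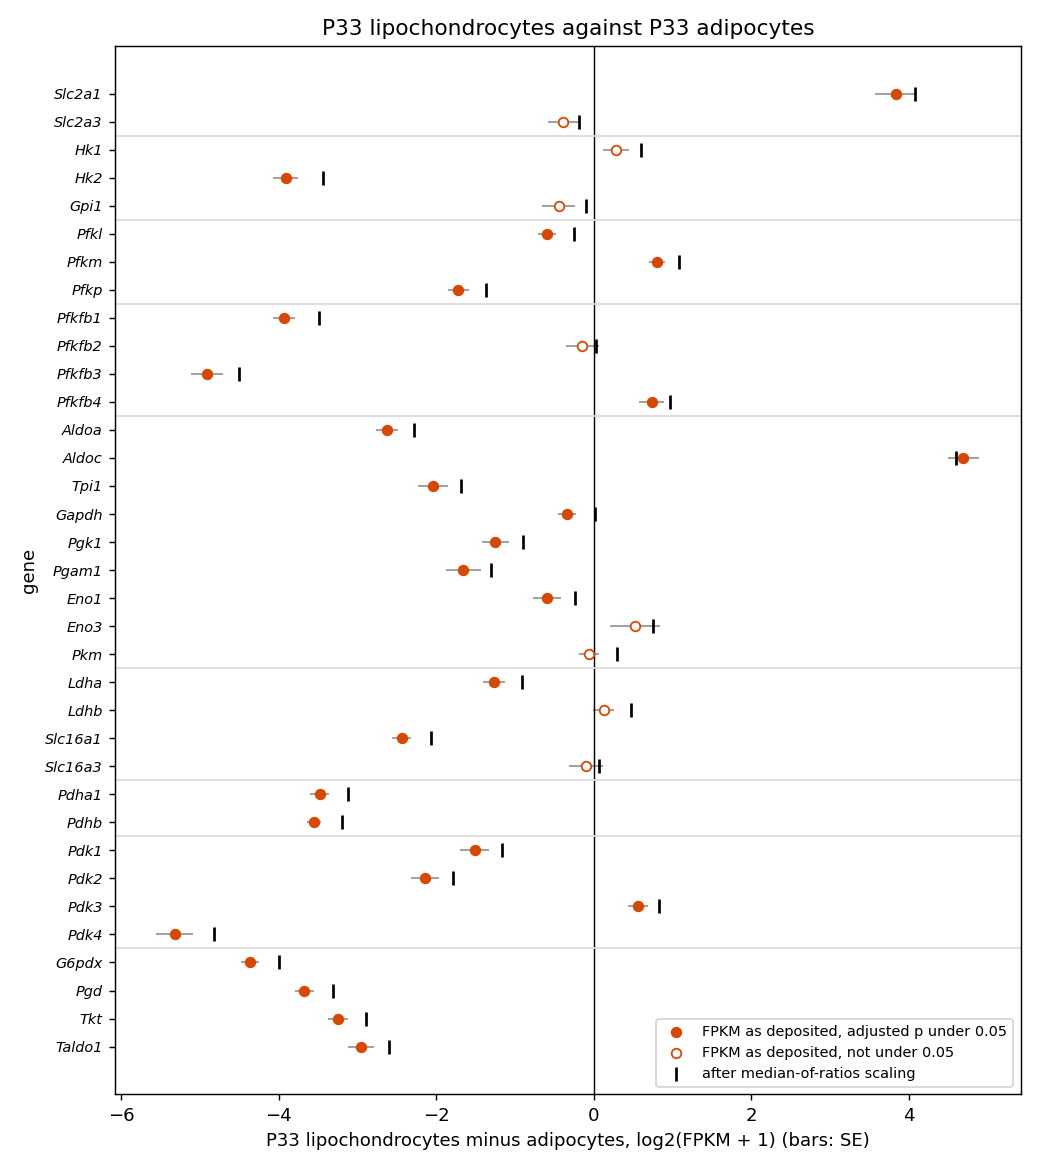
Difference in log2(FPKM + 1) between P33 lipochondrocytes and P33 adipocytes for each gene, with SE bars; filled points had adjusted p under 0.05 and black ticks show the difference after median-of-ratios scaling. Aldoc (4.70) and Slc2a1 (3.85) lie far to the right, Pdk4 (-5.32), Pfkfb3 (-4.91) and G6pdx (-4.37) far to the left.

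**Figure D2:**
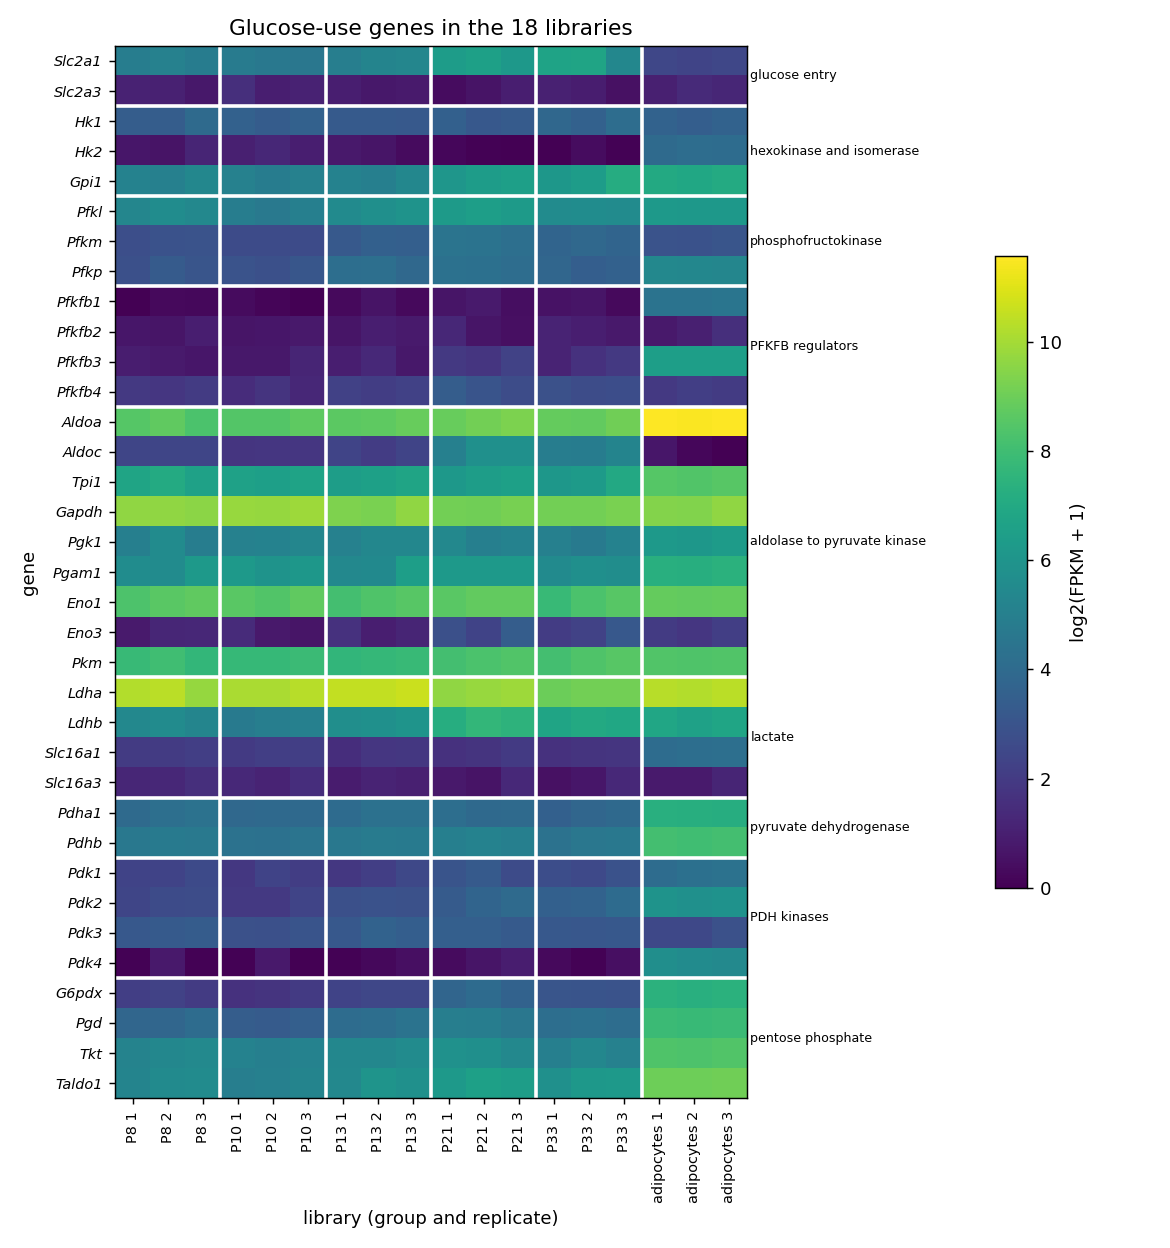
Level of the 35 genes in each of the 18 libraries as log2(FPKM + 1), columns by group and replicate, rows by role in glucose use. The adipocyte columns stand above every lipochondrocyte column for 18 genes, below every one for 2 (Slc2a1 and Aldoc) and among them for 15.

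Transcript of the glucose transporter gene Slc2a1 was higher in lipochondrocytes than in adipocytes. Slc2a1 encodes GLUT1, the basal glucose transporter of most cells. It had 29.2, 32.5 and 27.6 FPKM at P8, 26.8, 23.8 and 22.7 at P10, 30.4, 36.1 and 39.3 at P13, 83.6, 94.8 and 71.8 at P21 and 105, 108 and 39.9 at P33, against 4.52, 4.25 and 4.45 FPKM in adipocytes. All 15 lipochondrocyte libraries lay above the adipocytes. The P21 libraries and 2 of the P33 libraries lay highest. The third P33 replicate lay near the P13 level. Slc2a1 rose in P33 lipochondrocytes against adipocytes with 3.85 (SE 0.27, adjusted p = 4.91e-09), at 19.1 times the adipocyte mean, and in P21 lipochondrocytes with 3.96 (SE 0.27, adjusted p = 3.5e-09). Without the third P33 replicate the P33 difference was 4.31. Slc2a3, the high-affinity GLUT3 transporter of neurons, stayed at 0.31 to 1.97 FPKM in lipochondrocytes and 1.04 to 1.58 FPKM in adipocytes. It did not pass at P33 (-0.39, adjusted p = 0.0831). At P21 it fell by 0.56 on the log2 scale (adjusted p = 0.0177), a call lost after rescaling (adjusted p = 0.149) and without P21 replicate 1, P21 replicate 2 or adipocyte replicate 2 (adjusted p 0.00521 to 0.0863 over the fits that left out 1 library).

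Hexokinase transcript was almost wholly Hk1 in P21 and P33 lipochondrocytes, mostly Hk1 in the sorted stages and mixed in adipocytes. Hk2, the insulin-responsive isozyme of fat and muscle, had 0.61, 0.52 and 1.26 FPKM at P8, 1.01, 1.43 and 0.97 at P10, 0.74, 0.6 and 0.27 at P13, 0.16, 0.05 and 0.02 at P21 and 0.03, 0.3 and 0.05 at P33, against 14.8, 16.8 and 16 FPKM in adipocytes. The adipocyte libraries lay above all the others. Hk2 fell at P33 against adipocytes with -3.91 (SE 0.16, adjusted p = 7.35e-12) and at P21 with -3.97 (SE 0.16, adjusted p = 6.05e-12). Hk1, the housekeeping isozyme, averaged 11.3 ± 3.08 FPKM at P8, 10.5 ± 0.942 at P10, 8.56 ± 0.115 at P13, 9.24 ± 1.25 at P21, 13.7 ± 2.61 at P33 and 10.9 ± 0.946 FPKM in adipocytes (SD, n = 3), and its P33 and adipocyte libraries overlapped. The P33 difference of 0.29 did not pass (adjusted p = 0.13). It passed after rescaling (0.60, adjusted p = 0.00235) and without the second P33 replicate (adjusted p = 0.0484). Of the summed FPKM of Hk1 and Hk2, Hk1 took 99% ± 1.35 at P33 and 40.7% ± 3.56 in adipocytes (SD, n = 3). Gpi1 converts glucose 6-phosphate to fructose 6-phosphate, and it had 33.8, 32.4 and 40.2 FPKM at P8, 33, 28.2 and 33.5 at P10, 33.9, 30.5 and 39.6 at P13, 66.6, 83.8 and 92.4 at P21 and 69.1, 83.2 and 144 at P33, against 131, 119.7 and 134 FPKM in adipocytes. The third P33 replicate was above the adipocytes and the other P33 libraries were below them. The P33 difference of -0.44 did not pass (adjusted p = 0.074), whereas without that replicate Gpi1 fell with a difference of -0.75 (adjusted p = 0.000605). At P21 Gpi1 fell with a difference of -0.67 (SE 0.21, adjusted p = 0.0111), a call lost after rescaling (adjusted p = 0.149) and without P21 replicate 1 (adjusted p = 0.0541).

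Phosphofructokinase commits sugar to glycolysis, and its 3 isozymes were set differently in the 2 cell types. Pfkm, the muscle isozyme, had 5.78, 6.53 and 6.77 FPKM at P8, 5.27, 5.17 and 5.28 at P10, 8.47, 10.6 and 10.3 at P13, 20.6, 20.4 and 17.8 at P21 and 12.1, 14.3 and 12.2 at P33, against 6.9, 6.5 and 7.41 FPKM in adipocytes. It lay above the adipocytes in every P13, P21 and P33 library and rose with a difference of 0.80 (SE 0.10, adjusted p = 4.93e-06) at P33 and 1.37 (SE 0.10, adjusted p = 1.06e-08) at P21. The 16 muscle markers summed to 379.9, 100.2 and 669.7 FPKM in the same 3 P21 libraries, and the part of muscle RNA in Pfkm was not tested. Pfkp, the platelet isozyme, had 6.2, 9.04 and 7.19 FPKM at P8, 6.88, 6.1 and 7.56 at P10, 17, 17.8 and 14.2 at P13, 19.2, 18.4 and 16.6 at P21 and 13.3, 10.1 and 11.1 at P33, against 41.2, 39.8 and 39.1 FPKM in adipocytes. The adipocyte libraries were above all others, and Pfkp fell with a difference of -1.72 (SE 0.13, adjusted p = 1.51e-08) at P33 and -1.11 (SE 0.13, adjusted p = 2.44e-06) at P21. Of Pfkp's exonic bases, 748 are shared with Pitrm1 on the opposite strand, which reached 14.6 FPKM. Pfkl, the liver isozyme and the most abundant of the 3 per length in every group, averaged 43.4 ± 5.18 FPKM at P8, 28.1 ± 3.28 at P10, 53.6 ± 7.53 at P13, 81.4 ± 5.25 at P21, 47.7 ± 0.949 at P33 and 72.6 ± 2.41 FPKM in adipocytes (SD, n = 3). Against adipocytes it fell at P33 with -0.60 (SE 0.12, adjusted p = 0.000306), which did not pass after rescaling (-0.25, adjusted p = 0.0705), and at P21 its difference of 0.16 did not pass (adjusted p = 0.234). Summed FPKM of the 3 isozymes were 72.1 ± 1.1 at P33, 119 ± 6.36 at P21 and 119.6 ± 3.38 in adipocytes (SD, n = 3). Pfkm made up 17.8% ± 1.48 of the sum at P33 and 5.8% ± 0.399 in adipocytes. Pfkp made up 16% ± 2.31 at P33 and 33.5% ± 0.497 in adipocytes.

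The PFKFB enzymes, which set fructose 2,6-bisphosphate, differed in which isozyme led. Pfkfb3, the isozyme with the highest kinase over phosphatase activity, had 0.89, 0.8 and 0.62 FPKM at P8, 0.7, 0.7 and 1.29 at P10, 0.98, 1.49 and 0.66 at P13, 2.76, 2.44 and 3.83 at P21 and 1.22, 2.14 and 2.8 at P33, against 88.8, 89.1 and 88.1 FPKM in adipocytes. Pfkfb1, the isozyme of liver and muscle, had 0, 0.21 and 0.19 FPKM at P8, 0.27, 0.11 and 0 at P10, 0.21, 0.52 and 0.23 at P13, 0.56, 0.81 and 0.33 at P21 and 0.46, 0.59 and 0.22 at P33, against 20.0, 20.1 and 21.7 FPKM in adipocytes. In both genes the adipocyte libraries lay above all 15 lipochondrocyte libraries. Pfkfb3 fell with a difference of -4.91 (SE 0.20, adjusted p = 6.94e-12) at P33 and -4.50 (SE 0.20, adjusted p = 1.98e-11) at P21, and Pfkfb1 with -3.93 (SE 0.14, adjusted p = 1.86e-12) at P33 and -3.80 (SE 0.14, adjusted p = 2.79e-12) at P21. Pfkfb4, an isozyme first described in testis, went the other way: it had 2.77, 2.51 and 3.01 FPKM at P8, 1.79, 2.34 and 1.41 at P10, 3.76, 3.36 and 3.66 at P13, 9.81, 7.04 and 5.46 at P21 and 6.25, 5.55 and 5.62 at P33, against 2.81, 3.4 and 3.05 FPKM in adipocytes, with every P21 and P33 library above the adipocytes. It rose with a difference of 0.74 (SE 0.16, adjusted p = 0.00076) at P33 and 1.02 (SE 0.16, adjusted p = 4.25e-05) at P21. Pfkfb2, the heart isozyme, was at 0.38 to 1.47 FPKM in lipochondrocytes and 0.72 to 1.92 FPKM in adipocytes and passed in no comparison with all libraries in the fit. Without P21 replicate 1 the P21 difference passed (adjusted p = 0.0197). The 4 isozymes summed to 9.24 ± 0.127 FPKM at P33 and 114 ± 1.2 FPKM in adipocytes (SD, n = 3). Pfkfb4 was 62.9% ± 4.85 of the sum at P33 and 2.72% ± 0.251 in adipocytes. Pfkfb3 was 22.1% ± 8.3 at P33 and 78.1% ± 1.18 in adipocytes.

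Aldolase splits fructose 1,6-bisphosphate, and its brain isozyme Aldoc was higher in lipochondrocytes than in adipocytes, most of all at P21 and P33. Aldoc had 4.41, 4.33 and 4.28 FPKM at P8, 2.49, 2.53 and 2.52 at P10, 4.19, 3.15 and 4.21 at P13, 31.6, 54.4 and 54.9 at P21 and 28.7, 28.4 and 36 at P33, against 0.62, 0.14 and 0 FPKM in adipocytes. The groups did not overlap, and the third adipocyte library is listed at 0, so no fold is given. Aldoc rose against adipocytes with 4.70 (SE 0.20, adjusted p = 1.42e-11) at P33 and 5.25 (SE 0.20, adjusted p = 3.74e-12) at P21. Aldoa, the main aldolase of most tissues, had 368, 433 and 314 FPKM at P8, 357, 349.7 and 416 at P10, 399, 409 and 474 at P13, 472, 553 and 632 at P21 and 459, 445 and 540.1 at P33, against 2966, 2883 and 3046 FPKM in adipocytes, and it was the most abundant member in adipocytes. Aldoa fell with a difference of -2.63 (SE 0.14, adjusted p = 1.74e-10) at P33 and -2.43 (SE 0.14, adjusted p = 4.51e-10) at P21. Aldoc was 6.04% ± 0.189 of the summed aldolase FPKM at P33 and 7.74% ± 1.36 at P21 (SD, n = 3).

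**Figure D3:**
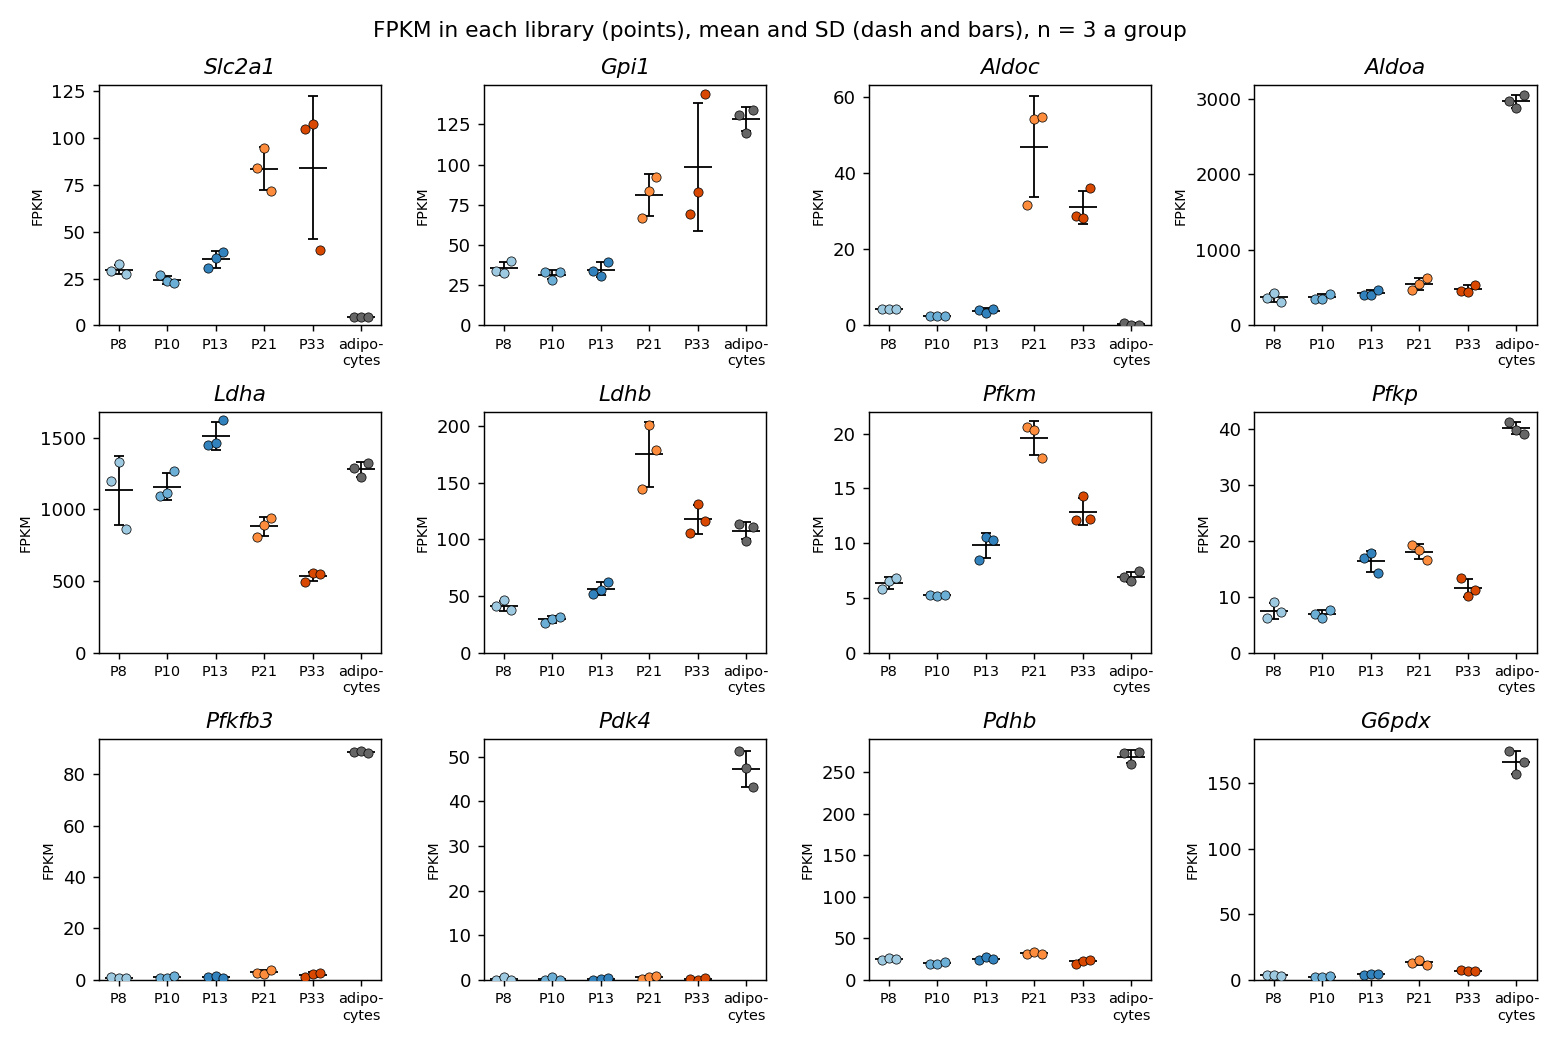
FPKM of 12 genes in each library (points), with group mean and SD (n = 3), stages from P8 to P33 and then adipocytes. Aldoc and Slc2a1 are high in P21 and P33 libraries and low in adipocytes, with the third P33 replicate of Slc2a1 at 39.9 FPKM, while Pfkfb3, Pdk4, Pdhb and G6pdx are low in lipochondrocytes beside adipocytes.

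Among the other genes of lower glycolysis, Tpi1 fell and Pkm did not pass the test. Tpi1, which interconverts the 2 triose phosphates, had 107, 134 and 96.7 FPKM at P8, 96.7, 92 and 105 at P10, 85.1, 94 and 106 at P13, 70.9, 86.2 and 93.3 at P21 and 69, 78.5 and 126 at P33, against 371, 346 and 381 FPKM in adipocytes. Tpi1 fell with a difference of -2.04 (SE 0.19, adjusted p = 1.32e-07) at P33 and -2.13 (SE 0.19, adjusted p = 8.21e-08) at P21. Pkm, the pyruvate kinase of most tissues, had 221, 257 and 202 FPKM at P8, 217, 215 and 239.6 at P10, 196, 208 and 224 at P13, 274, 317 and 345 at P21 and 278, 338 and 377 at P33, against 347, 333 and 345 FPKM in adipocytes. Its groups overlapped and it did not pass at P33 (-0.06, adjusted p = 0.707) or P21 (-0.14, adjusted p = 0.356). Eno3, the muscle enolase, had 0.79, 1.38 and 1.46 FPKM at P8, 1.65, 0.71 and 0.56 at P10, 2.09, 0.95 and 1.32 at P13, 6.09, 4 and 9.78 at P21 and 3.22, 3.91 and 8.18 at P33, against 3.09, 2.53 and 3.4 FPKM in adipocytes. At P33 its difference of 0.53 did not pass (adjusted p = 0.152), and at P21 it rose with a difference of 0.86 (SE 0.32, adjusted p = 0.0251). Within P21 and within P33 Eno3 ranked the libraries as the 16 skeletal muscle markers did, with sums of 32.5, 67 and 261 FPKM at P33 and 379.9, 100.2 and 669.7 at P21 against 57.3 to 61.4 in adipocytes. Without the libraries highest in muscle markers, the third replicates of P21 and P33, the P21 call of Eno3 was lost (adjusted p = 0.0607). Over the fits that left out 1 library its adjusted p was 0.00791 to 0.132, with the call lost without P21 replicate 3, adipocyte replicate 1 or adipocyte replicate 2. The part of muscle RNA in Eno3 was not tested.

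Gapdh, Eno1, Pgam1 and Pgk1 are uncertain as listed, because the table also lists near-identical copies between which the counting could split their reads. For Gapdh, the triose phosphate dehydrogenase, 164 listed genes matched its transcript at 90% identity or more over at least 300 bases. The copy Gm13394 reached at most 2 FPKM at P33, with others there listed at 0, and 723 to 836 FPKM in adipocytes. The copies Gm7336, Gm10359 and Gm12671 held the same value as one another in each of the 18 libraries, 61.9 ± 51.5 FPKM at P33, and were listed at 0 in adipocytes. Gapdh itself had 792, 799.5 and 755 FPKM at P8, 889.9, 856 and 931 at P10, 649, 614 and 799.9 at P13, 546, 542 and 590.3 at P21 and 547, 555 and 607 at P33, against 691, 662 and 811 FPKM in adipocytes. It fell at P33 with -0.34 (SE 0.11, adjusted p = 0.0148), but the sign turned after rescaling (0.01, adjusted p = 0.938) and the call was lost without the third adipocyte replicate (adjusted p = 0.0821). At P21 Gapdh fell with a difference of -0.36 (SE 0.11, adjusted p = 0.0098), a call lost after rescaling (-0.06, adjusted p = 0.688) and without adipocyte replicate 3 (adjusted p = 0.0574). With all copies added, Gapdh had 668, 711 and 1005 FPKM at P33 and 1491, 1414 and 1679 FPKM in adipocytes, and the difference became -0.96 (SE 0.15, adjusted p = 3.65e-05) at P33 and -1.04 (SE 0.15, adjusted p = 1.74e-05) at P21. The sum rests on FPKM normalised to the length of each copy and was chosen after seeing the data.

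Eno1, the main enolase outside muscle, had 327, 389 and 434 FPKM at P8, 394, 344 and 426 at P10, 278, 332 and 374 at P13, 385, 443 and 449 at P21 and 221, 309 and 383 at P33, against 449.9, 440.1 and 451 FPKM in adipocytes. It fell at P33 with -0.59 (SE 0.18, adjusted p = 0.00801) and not after rescaling (-0.24, adjusted p = 0.217). At P21 its difference of -0.07 did not pass (adjusted p = 0.732). Its 3 copies, Gm4735 and Eno1b among them, summed to 102 ± 34.1 FPKM at P33 and 305 ± 5.31 FPKM in adipocytes, and with them added the P33 difference was -0.91 (SE 0.17, adjusted p = 0.000227). Pgam1, the phosphoglycerate mutase of most tissues, had 48.8, 46.9 and 73.5 FPKM at P8, 73.6, 61 and 69.4 at P10, 40.7, 43.7 and 87.6 at P13, 76.8, 76.6 and 73.7 at P21 and 45.5, 53.1 and 50.8 at P33, against 157, 153 and 165 FPKM in adipocytes. Pgam1 fell with a difference of -1.65 (SE 0.23, adjusted p = 1.09e-05) at P33 and -1.06 (SE 0.23, adjusted p = 0.00078) at P21, and with its 3 copies added with -1.49 (SE 0.21, adjusted p = 1.35e-05) at P33. Pgk1, which makes the first ATP of the pathway, had 30.9, 46.5 and 28.6 FPKM at P8, 32.5, 34.4 and 39.2 at P10, 32.9, 40.2 and 40.1 at P13, 41.6, 30.7 and 33.6 at P21 and 32.3, 26.4 and 34.4 at P33, against 76.4, 68.4 and 80.0 FPKM in adipocytes. Pgk1 fell with a difference of -1.25 (SE 0.17, adjusted p = 1.02e-05) at P33 and -1.07 (SE 0.17, adjusted p = 4.95e-05) at P21, and the P33 value with its 2 copies added was -1.16 (SE 0.11, adjusted p = 1.4e-07).

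Lactate dehydrogenase differed in its mix of subunits. Ldha, the subunit that favours lactate formation and the most abundant member from P8 to P21 by values as listed, had 1202, 1332 and 866 FPKM at P8, 1094, 1113 and 1267 at P10, 1448, 1462 and 1624 at P13, 809, 894 and 941 at P21 and 497, 557 and 546 at P33, against 1288, 1224 and 1326 FPKM in adipocytes. The P33 libraries were the lowest of all, and the P13 libraries the highest. Ldha fell against adipocytes with -1.26 (SE 0.14, adjusted p = 9.58e-07) at P33 and -0.54 (SE 0.14, adjusted p = 0.00302) at P21. The P21 call was lost after rescaling (-0.24, adjusted p = 0.227). Ldhb, the heart-type subunit that favours the return of lactate to pyruvate, had 40.8, 46.4 and 37.5 FPKM at P8, 26.1, 30.1 and 31.9 at P10, 51.6, 55.1 and 62.8 at P13, 145, 202 and 179 at P21 and 106, 132 and 116 at P33, against 114, 99 and 111 FPKM in adipocytes. The P33 and adipocyte libraries overlapped and the difference of 0.13 did not pass (adjusted p = 0.415), though it did after rescaling (0.47, adjusted p = 0.00835). At P21, where all libraries lay above the adipocytes, Ldhb rose with a difference of 0.69 (SE 0.13, adjusted p = 0.000338). Slc16a1, the lactate and pyruvate transporter MCT1, had 3.06, 3.06 and 3.44 FPKM at P8, 2.85, 3.37 and 3.43 at P10, 1.83, 2.54 and 2.64 at P13, 2.14, 2.3 and 2.96 at P21 and 2.13, 2.37 and 2.49 at P33, against 16.1, 17.2 and 17.7 FPKM in adipocytes, with all 15 lipochondrocyte libraries below the adipocytes. Slc16a1 fell with a difference of -2.44 (SE 0.12, adjusted p = 5.27e-11) at P33 and -2.39 (SE 0.12, adjusted p = 7.03e-11) at P21. Slc16a3, the lactate exporter MCT4 of glycolytic cells, was at 0.45 to 1.92 FPKM in lipochondrocytes and 0.77 to 1.32 FPKM in adipocytes and passed in no comparison.

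Both subunits of pyruvate dehydrogenase fell far below the adipocyte level. Pdha1, the catalytic alpha subunit, had 14.8, 17.8 and 19.7 FPKM at P8, 13.9, 14.5 and 14.4 at P10, 15.6, 18.7 and 18.8 at P13, 17, 14.5 and 14.8 at P21 and 10.6, 13.3 and 14.6 at P33, against 156, 151 and 149 FPKM in adipocytes. Pdhb, the beta subunit, had 24.1, 25.7 and 24.7 FPKM at P8, 19.6, 19.1 and 21 at P10, 24, 27.1 and 25.5 at P13, 31.4, 33.7 and 31.3 at P21 and 19.6, 23.1 and 23.5 at P33, against 273, 259 and 273 FPKM in adipocytes. Lipochondrocyte libraries lay below every adipocyte library in both genes. The differences were -3.48 (SE 0.12, adjusted p = 1.33e-12) for Pdha1 and -3.55 (SE 0.08, adjusted p = 1.16e-14) for Pdhb at P33. They were -3.22 (SE 0.12, adjusted p = 3.31e-12) for Pdha1 and -3.03 (SE 0.08, adjusted p = 7.89e-14) for Pdhb at P21. The kinases that inhibit the complex fell in 3 of 4 cases. Pdk4, the kinase induced by fasting, had 0.04, 0.71 and 0.06 FPKM at P8, 0.04, 0.71 and 0 at P10, 0.05, 0.17 and 0.41 at P13, 0.27, 0.59 and 0.88 at P21 and 0.22, 0.04 and 0.38 at P33, against 51.2, 47.6 and 43.1 FPKM in adipocytes. Pdk4 fell with a difference of -5.32 (SE 0.23, adjusted p = 1.62e-11) at P33 and -4.95 (SE 0.23, adjusted p = 3.98e-11) at P21. Pdk2, the most widely expressed kinase, had 4.28, 5.19 and 5.49 FPKM at P8, 2.75, 2.79 and 4.2 at P10, 6.05, 6.61 and 6.21 at P13, 8.86, 12.2 and 15.2 at P21 and 10.8, 11.7 and 15.3 at P33, against 60.1, 55.9 and 59.5 FPKM in adipocytes. Pdk2 fell with a difference of -2.14 (SE 0.18, adjusted p = 3.34e-08) at P33 and -2.21 (SE 0.18, adjusted p = 2.32e-08) at P21. Pdk1, a hypoxia-inducible kinase, had 3.96, 4.02 and 5.14 FPKM at P8, 2.62, 3.95 and 3.31 at P10, 2.71, 3.4 and 4.76 at P13, 6.92, 8.59 and 5.19 at P21 and 5.7, 4.85 and 6.45 at P33, against 16.3, 18.2 and 19.3 FPKM in adipocytes. Pdk1 fell with a difference of -1.51 (SE 0.19, adjusted p = 3.31e-06) at P33 and -1.28 (SE 0.19, adjusted p = 1.95e-05) at P21. In all 3 genes no lipochondrocyte library reached the adipocyte level. Pdk3, the remaining kinase, was the exception. It averaged 8.7 ± 0.681 FPKM at P8, 6.45 ± 0.478 at P10, 9.76 ± 1.62 at P13, 9.71 ± 0.963 at P21, 8.02 ± 0.0751 at P33 and 5.15 ± 0.924 in adipocytes (SD, n = 3), and rose against adipocytes with 0.56 (SE 0.13, adjusted p = 0.00105) at P33 and 0.81 (SE 0.13, adjusted p = 4.27e-05) at P21. The 4 kinases summed to 26.5 ± 3.24 FPKM at P33 and 129 ± 3.06 FPKM in adipocytes (SD, n = 3). Pdk3 was 30.5% ± 3.26 of the sum at P33 and 4% ± 0.742 in adipocytes, and Pdk4 0.77% ± 0.556 at P33 and 36.7% ± 2.67 in adipocytes.

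All 4 pentose phosphate genes fell against adipocytes at both P33 and P21, and did so under each of the 12 alternative settings run for them. G6pdx, the NADPH-making entry enzyme, had 3.38, 3.92 and 3.09 FPKM at P8, 2.15, 2.3 and 2.92 at P10, 3.99, 4.55 and 4.45 at P13, 12.8, 15.4 and 11.3 at P21 and 7.27, 7.07 and 6.87 at P33, against 174, 156 and 166 FPKM in adipocytes. The adipocyte libraries were above all others, and the P21 libraries were the highest of the lipochondrocytes. G6pdx fell with a difference of -4.37 (SE 0.12, adjusted p = 4.28e-14) at P33 and -3.56 (SE 0.12, adjusted p = 5.01e-13) at P21. Pgd, the second NADPH-making enzyme, had 13.3, 13.2 and 15.9 FPKM at P8, 9.62, 8.9 and 10.4 at P10, 16.1, 17.1 and 20.2 at P13, 30.2, 29.3 and 23.1 at P21 and 17.2, 18.1 and 16.4 at P33, against 234, 221 and 239 FPKM in adipocytes. Pgd fell with a difference of -3.67 (SE 0.12, adjusted p = 3.22e-13) at P33 and -3.04 (SE 0.12, adjusted p = 3.15e-12) at P21. Tkt and Taldo1 rearrange pentoses back to glycolytic sugars. Tkt had 35.3, 39.5 and 42.3 FPKM at P8, 33.6, 30.5 and 34 at P10, 39.9, 39.6 and 47.7 at P13, 57.6, 52.9 and 41.5 at P21 and 30.7, 40.0 and 32.5 at P33, against 331, 319 and 349 FPKM in adipocytes. Taldo1 had 36.6, 45.3 and 46.5 FPKM at P8, 30.3, 31.5 and 36.7 at P10, 40.8, 63.1 and 55.7 at P13, 74, 93.8 and 86.8 at P21 and 54.8, 70.7 and 75.5 at P33, against 518, 514 and 530.5 FPKM in adipocytes. Both lay below every adipocyte library. Tkt fell with a difference of -3.24 (SE 0.13, adjusted p = 6.47e-12) at P33 and -2.70 (SE 0.13, adjusted p = 5.87e-11) at P21, and Taldo1 with -2.95 (SE 0.16, adjusted p = 2.51e-10) at P33 and -2.61 (SE 0.16, adjusted p = 1.11e-09) at P21. G6pdx shares 418 exonic bases with Ikbkg on the opposite strand, which reached 7.90 FPKM in its highest library, below each adipocyte and P21 value of G6pdx and above those of the other stages.

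Ratios of isozymes within a library depend little on how libraries are scaled, apart from the added 1 FPKM in genes near 0. They were compared between the 6 lipochondrocyte libraries of P21 and P33 and the 3 adipocyte libraries, with an exact permutation test, two-sided, for each of 10 pairs. All 10 pairs gave an exact permutation p of 0.0238, the smallest this design allows. It stayed 0.0238 after Benjamini-Hochberg adjustment over the 10 pairs. A pair reaches this p whenever the 2 sides do not overlap, and the share over other gene pairs was not computed. For Aldoc to Aldoa the levels given above already fixed this p. Adipocytes lay below every lipochondrocyte library in Aldoc and above every one in Aldoa. Of single genes, 70.7% did not overlap between P33 and adipocytes and 73.5% between P21 and adipocytes. The log2 ratio of Ldha to Ldhb was 4.72 ± 0.20 at P8, 5.26 ± 0.09 at P10, 4.72 ± 0.06 at P13, 2.33 ± 0.17 at P21, 2.17 ± 0.08 at P33 and 3.56 ± 0.06 in adipocytes (SD, n = 3 each). Sorted lipochondrocytes thus lay above the adipocytes in this ratio and floating lipochondrocytes below them. Relative to adipocytes, P21 and P33 lipochondrocytes differed by 7.50 in the log2 ratio of Aldoc to Aldoa, by 1.31 in Pfkm to Pfkl, by -1.20 in Pfkp to Pfkl and by -3.97 in Hk2 to Hk1. The differences were -4.37 for Slc2a3 to Slc2a1, 2.33 for Slc16a3 to Slc16a1, -2.96 for Pdk4 to Pdk2 and 0.78 for Pdk1 to Pdk2. Eno3 to Eno1 differed by 1.03, with the muscle markers and the Eno1 copies noted above. With 1 adipocyte library left out, or P33 alone against adipocytes, the smallest p of the test is above 0.05 and no pair can pass.

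**Figure D4:**
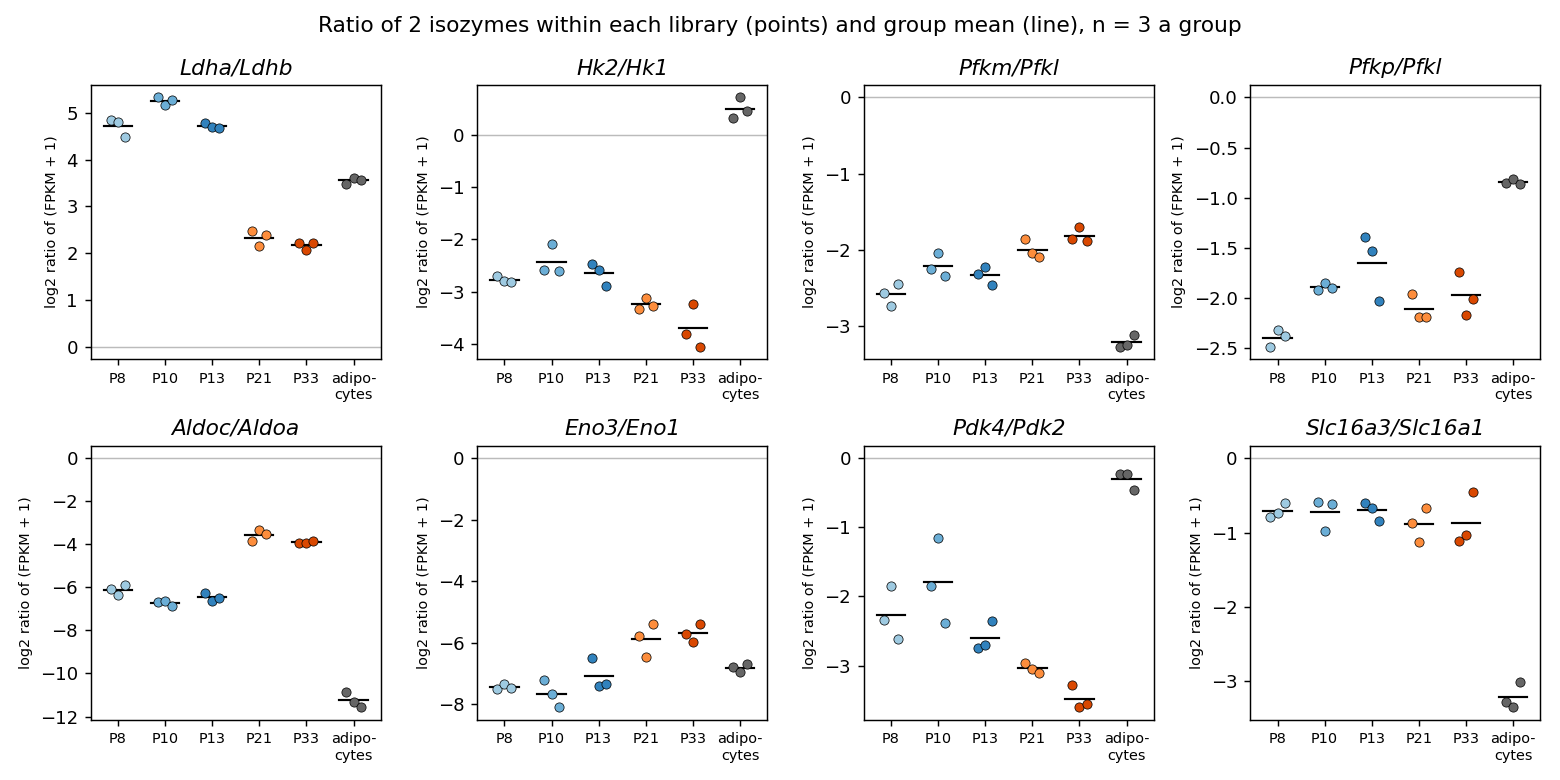
Log2 ratio of FPKM + 1 between isozymes within each library (points) with the group mean (line), n = 3 a group, for 8 of the 10 pairs. Ldha/Ldhb lies at 2.33 at P21 and 2.17 at P33, below the adipocytes at 3.56, and above them in the sorted stages.

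Within the sorted stages, 4 members passed between P8 and P10 and 14 between P10 and P13. At P10 against P8, 4 members fell, 0 rose and 31 did not pass, beside 11% of all genes called, 9.14% lower and 1.9% higher. The members that fell were Pfkl (-0.61, SE 0.12, adjusted p = 0.00592), Ldhb (-0.48, SE 0.13, adjusted p = 0.0339), Pdhb (-0.31, SE 0.08, adjusted p = 0.034) and Pgd (-0.51, SE 0.12, adjusted p = 0.0145). None of these calls held after rescaling, where 1 member, Gapdh, was called higher (0.52, adjusted p = 0.0306). Of all 13815 genes, 497 were then higher and 125 lower. Gapdh is among the genes with unsettled copies. The calls of Ldhb (adjusted p 0.0404 to 0.147 with 1 library left out), Pdhb (0.0429 to 0.115) and Pgd (0.0236 to 0.0575) were also lost without single libraries. The Ldhb call was lost without P8 replicate 1, P8 replicate 2, P10 replicate 1 or P10 replicate 2. The Pdhb call was lost without P8 replicate 2, P8 replicate 3, P10 replicate 1 or P10 replicate 2, and the Pgd call without P8 replicate 3, P10 replicate 1 or P10 replicate 2. G6pdx (adjusted p = 0.0358) and Pdk2 (0.0417) passed without P10 replicate 3. Of 10 fibroblast and perichondrium markers, 4 rose in the same step, and the list summed to 6402 to 8499 FPKM at P10 and 3577 to 5010.1 FPKM at P8; its part in the differences was not tested. The groups did not overlap for 15 members, beside 34% of all genes. The median of the members was -0.16 and that of all genes -0.19.

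At P13 against P10, 11 members rose, 3 fell and 21 did not pass. Of all genes, 22.6% were called, 4.03% lower and 18.6% higher. After rescaling 8 members were higher and 5 lower, beside 1125 and 1183 of all 13815 genes. In the same step 9 of the 10 fibroblast and perichondrium markers fell, and the list summed to 2129 to 2792 FPKM at P13 and 6402 to 8499 FPKM at P10; its part in the members' differences was not tested. All 3 phosphofructokinases rose and did so under every alternative run: Pfkp with 1.14 (SE 0.13, adjusted p = 4.21e-05), Pfkl with 0.90 (SE 0.12, adjusted p = 0.0001) and Pfkm with 0.78 (SE 0.10, adjusted p = 0.000118). Their summed FPKM were 79.7 ± 7.28 at P13 and 40.2 ± 4.06 at P10 (SD, n = 3). Pfkfb4 (0.70, SE 0.16, adjusted p = 0.00595), Ldhb (0.92, SE 0.13, adjusted p = 0.000259) and Pdk2 (0.80, SE 0.18, adjusted p = 0.00509) rose as well. In the pentose phosphate pathway G6pdx (0.63, SE 0.12, adjusted p = 0.00151), Pgd (0.82, SE 0.12, adjusted p = 0.000211) and Taldo1 (0.66, SE 0.16, adjusted p = 0.00895) rose, and Tkt did not pass (0.36, adjusted p = 0.0615). Taldo1, Pdhb (0.34, SE 0.08, adjusted p = 0.00955) and Pdk3 (0.52, SE 0.13, adjusted p = 0.00876) were not called after rescaling, with adjusted p of 0.0704, 0.61 and 0.0851, and Taldo1 was also lost without P13 replicate 2 (adjusted p = 0.0501). The members that fell were Hk2 (-0.48, SE 0.16, adjusted p = 0.0421), Gapdh (-0.38, SE 0.11, adjusted p = 0.0227) and Slc16a1 (-0.34, SE 0.12, adjusted p = 0.0475). Leaving out 1 library moved their adjusted p over 0.0328 to 0.179, 0.00835 to 0.109 and 0.0464 to 0.186. The Hk2 call was lost without P10 replicate 1, P10 replicate 2, P10 replicate 3, P13 replicate 2 or P13 replicate 3. The Gapdh call was lost without P10 replicate 1, P10 replicate 3, P13 replicate 1 or P13 replicate 2, and the Slc16a1 call without P10 replicate 1, P10 replicate 2, P10 replicate 3, P13 replicate 1 or P13 replicate 2. Gapdh did not pass with its copies added (-0.34, SE 0.15, adjusted p = 0.123), and Eno1 depended on both choices. By itself Eno1 was not called as deposited (-0.25) and was called lower at P13 after rescaling (-0.53, adjusted p = 0.0407), whereas with its copies added it was called higher (0.64, SE 0.17, adjusted p = 0.0154). Those copies summed to 279 ± 40.4 FPKM at P13 and 0.84 ± 0.145 FPKM at P10. Pgam1 did not pass (-0.33, adjusted p = 0.344), except without P13 replicate 3 (adjusted p = 0.0122), with 40.7, 43.7 and 87.6 FPKM at P13 and 73.6, 61 and 69.4 at P10.

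P13 against P8, the ends of the sorted series, left 2 members called, both higher, with 0 lower and 33 not passing. Of all genes, 4.21% were called, 1.52% lower and 2.69% higher. After rescaling 3 members were higher, beside 535 of all 13815 genes higher and 247 lower. Pfkp rose with a difference of 1.04 (SE 0.13, adjusted p = 0.00025), at 17, 17.8 and 14.2 FPKM in P13 libraries and 6.2, 9.04 and 7.19 in P8 libraries. Pfkm rose with a difference of 0.55 (SE 0.10, adjusted p = 0.00545), at 8.47, 10.6 and 10.3 FPKM in P13 libraries and 5.78, 6.53 and 6.77 in P8 libraries. The stages did not overlap for these 2 genes, nor for 10 others, 12 in all, beside 21.8% of all genes. Over the same span the third isozyme Pfkl had 46.2, 53.2 and 61.2 FPKM at P13 and 39.2, 49.2 and 41.6 at P8 and did not pass (0.30, adjusted p = 0.21). Ldha, with 1448, 1462 and 1624 FPKM at P13 and 1202, 1332 and 866 at P8, did not pass either (0.44, adjusted p = 0.105), except without P8 replicate 2 (adjusted p = 0.0396).

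More members passed between P13 and P21 than in the other 4 stage comparisons, in the step where the isolation also changed from sorting to flotation. At P21 against P13, 17 members rose, 3 fell and 15 did not pass, beside 43.1% of all genes called, 36% higher and 7.04% lower. The median of the members was 0.38 and that of all genes 0.29. After rescaling they were 0.04 and 0.01, with 9 members higher and 7 lower. Of all 13815 genes, 2212 were then higher and 2214 lower. The sum of 12 immediate-early and stress genes was 106 to 181 FPKM at P21 and 20028 to 23858 FPKM at P13, and that of 16 skeletal muscle markers 100.2 to 669.7 at P21 and 30.6 to 44 at P13. The 10 fibroblast and perichondrium markers summed to 5267 to 9733 FPKM at P21 and 2129 to 2792 at P13, the 7 erythroid markers to 84.3 to 451 at P21 and 4.74 to 7.86 at P13, and the 10 macrophage markers to 19 to 32.4 at P21 and 4.01 to 4.81 at P13. Of the fibroblast and perichondrium markers, 5 were called higher and 2 lower, and after rescaling 5 higher and 4 lower. Postn, for 1, had 27.1 to 50.4 FPKM at P21 and 81.2 to 112 at P13. The part of these 5 lists in the differences was not tested. The groups did not overlap for 20 members, beside 52.7% of all genes.

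Of the members called higher at P21, 9 stayed higher after rescaling. Aldoc was 47 ± 13.3 FPKM at P21 and 3.85 ± 0.606 FPKM at P13 (SD, n = 3), 12.2 times as high (3.27, SE 0.20, adjusted p = 1.44e-08). Ldhb rose with a difference of 1.61 (SE 0.13, adjusted p = 3.55e-07), Eno3 with 1.59 (SE 0.32, adjusted p = 0.00104), G6pdx with 1.40 (SE 0.12, adjusted p = 3.34e-07), Slc2a1 with 1.22 (SE 0.27, adjusted p = 0.00224) and Gpi1 with 1.19 (SE 0.21, adjusted p = 0.000405). The regulators Pfkfb3 (0.98, SE 0.20, adjusted p = 0.00126) and Pfkfb4 (0.85, SE 0.16, adjusted p = 0.000697) and the isozyme Pfkm (0.94, SE 0.10, adjusted p = 5.45e-06) completed this group. Ldha went the other way, with 881 ± 66.6 FPKM at P21 and 1511 ± 97.5 at P13, and fell with a difference of -0.78 (SE 0.14, adjusted p = 0.000455). It stayed lower after rescaling (-1.23), so that Ldha and Ldhb differed in direction under both scalings. Hk2 (-0.50, SE 0.16, adjusted p = 0.0196) and Gapdh (-0.29, SE 0.11, adjusted p = 0.049) fell too, but their adjusted p ran over 0.00936 to 0.087 and 0.0296 to 0.233 with 1 library left out. The Hk2 call was lost without P13 replicate 1, P13 replicate 2, P21 replicate 2 or P21 replicate 3. The Gapdh call was lost without P13 replicate 1, P13 replicate 3, P21 replicate 1, P21 replicate 2 or P21 replicate 3, and Gapdh did not pass with its copies added (-0.36, SE 0.15, adjusted p = 0.0616).

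The other 8 rises depended on scaling. Pfkl (0.60), Pkm (0.57), Pdk1 (0.77), Pdk2 (0.82), Pgd (0.60) and Taldo1 (0.68) kept a positive difference after rescaling but were not called. Aldoa (0.36) and Pdhb (0.32) turned to -0.09 and -0.12. The Aldoa call was also lost without P13 replicate 1, P13 replicate 2, P21 replicate 2 or P21 replicate 3 (adjusted p 0.0193 to 0.183 with 1 library left out). After rescaling Tpi1 (-0.64), Pgk1 (-0.54), Pdha1 (-0.61) and Pdk3 (-0.41) were called lower, having been not called on the deposited scale. Pgam1 (0.48, adjusted p = 0.101) passed without P13 replicate 3 (adjusted p = 0.00125) and Tkt (0.24, adjusted p = 0.149) without P21 replicate 3 (adjusted p = 0.0315).

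**Figure D5:**
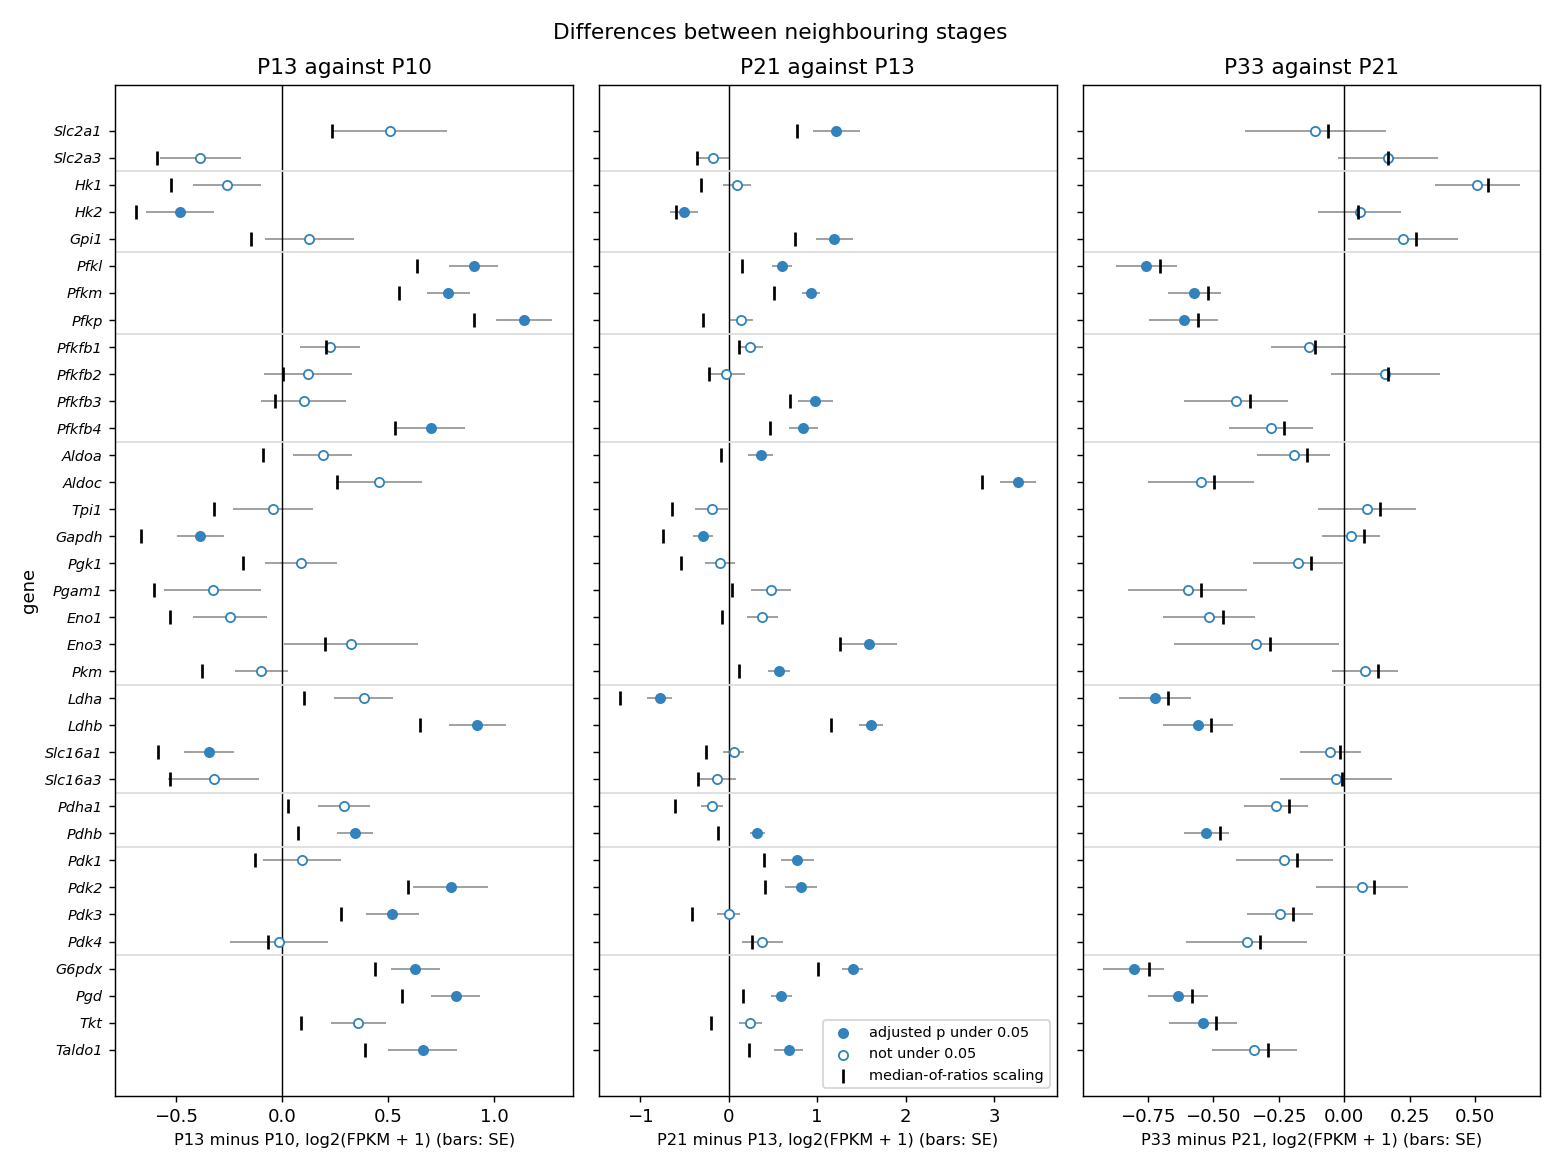
Difference in log2(FPKM + 1) between neighbouring stages for each gene, later minus earlier, with SE bars; filled points had adjusted p under 0.05 and black ticks show the value after median-of-ratios scaling. The phosphofructokinases lie right of 0 at P13 against P10 and left of 0 at P33 against P21, and Aldoc stands out at 3.27 at P21 against P13.

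Between P21 and P33, both collected by flotation, 9 members fell, 0 rose and 26 did not pass at P33. Of all genes, 10% were called, 7.17% lower and 2.87% higher. After rescaling 9 members were lower and 1 higher, beside 822 of all 13815 genes lower and 413 higher. All 3 phosphofructokinases fell. Pfkl had 46.8, 48.7 and 47.6 FPKM at P33 and 77.5, 87.3 and 79.3 FPKM at P21 (-0.76, SE 0.12, adjusted p = 0.0007). Pfkp differed by -0.61 (SE 0.13, adjusted p = 0.0081) and Pfkm by -0.57 (SE 0.10, adjusted p = 0.00241). Both lactate dehydrogenase genes fell, Ldha with -0.72 (SE 0.14, adjusted p = 0.00382) and Ldhb with -0.56 (SE 0.13, adjusted p = 0.0154). Their summed FPKM were 651 ± 44.1 at P33 and 1057 ± 89.4 at P21 (SD, n = 3). In the pentose phosphate pathway G6pdx (-0.80, SE 0.12, adjusted p = 0.000443), Pgd (-0.63, SE 0.12, adjusted p = 0.00268) and Tkt (-0.54, SE 0.13, adjusted p = 0.0162) fell, and Taldo1 did not pass (-0.34, adjusted p = 0.218). Pdhb fell with a difference of -0.53 (SE 0.08, adjusted p = 0.00112). Apart from Pfkl, these calls were lost when only the libraries of the 2 stages were modelled. The Ldhb call was also lost without P21 replicate 2 or P33 replicate 1 (adjusted p up to 0.0806), or without the libraries highest in muscle markers (adjusted p = 0.0706), and the Tkt call without P21 replicate 1, P21 replicate 2 or P33 replicate 1 (up to 0.0692). Hk1, at 13.4, 11.2 and 16.4 FPKM at P33 and 10.6, 8.18 and 8.93 at P21, did not pass (0.51, adjusted p = 0.0614) but did after rescaling (adjusted p = 0.0311) and without P33 replicate 2 (adjusted p = 0.0324). Aldoc (-0.55, adjusted p = 0.107) passed without P21 replicate 1 (adjusted p = 0.0115), and Eno1 (-0.52, adjusted p = 0.0815) without P33 replicate 3 (adjusted p = 0.014) or with its copies added (-0.56, SE 0.17, adjusted p = 0.0498). Pgam1 (-0.60, adjusted p = 0.119) likewise passed with its copies added (-0.69, SE 0.21, adjusted p = 0.0492). Macrophage markers summed to 34.9 to 65.7 FPKM at P33 and 19 to 32.4 FPKM at P21. Other lists were lower at P33. Skeletal muscle markers summed to 32.5 to 261 FPKM at P33 and 100.2 to 669.7 at P21, and erythroid markers to 43.6 to 147 and 84.3 to 451. Chondrocyte markers summed to 24485 to 26886 FPKM at P33 and 30494 to 32856 at P21. The part of these lists was not tested. The stages did not overlap for 13 members, beside 22.2% of all genes. Slc2a1 and Gpi1 did not pass, with -0.11 and 0.22; without the third P33 replicate these were 0.35 (adjusted p = 0.0913) and -0.08 (adjusted p = 0.808).

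Around the members, 46 further genes of glucose and pentose phosphate metabolism were listed, of which 32 passed the filter. At P33 against adipocytes 22 of the 32 fell and 4 rose, beside 44.5% of all genes lower and 24% higher. After rescaling 19 fell and 6 rose, beside 4825 and 4188 of all 13815 genes. Named by the size of their difference, the leading genes were Pck1, Pcx and Slc2a4, which all fell. Pck1, which makes phosphoenolpyruvate for glycerol synthesis, was at 0, 0.08 and 0 FPKM at P33 and 812, 794 and 827 FPKM in adipocytes (log2 difference -9.63, adjusted p = 6.4e-19). The pyruvate carboxylase gene Pcx had 4.7 ± 0.296 FPKM at P33 and 381 ± 12.6 FPKM in adipocytes (log2 difference -6.07, adjusted p = 2.78e-15). Slc2a4, the insulin-responsive transporter GLUT4, had 6.37 ± 0.676 FPKM at P33 and 119 ± 5.6 FPKM in adipocytes (log2 difference -4.03, adjusted p = 6.18e-11). At P21 against P13 14 of the 32 rose and 2 fell, beside 36% and 7.04% of all genes. After rescaling 8 rose and 4 fell, beside 2212 and 2214 of all 13815 genes. Slc2a4 rose, with 14.4 ± 5.15 FPKM at P21 and 0.357 ± 0.0666 FPKM at P13 (log2 difference 3.46, adjusted p = 6.04e-09). Mpc1, a subunit of the mitochondrial pyruvate carrier, rose with 519.5 ± 60.7 FPKM at P21 and 120.2 ± 14.4 FPKM at P13 (log2 difference 2.10, adjusted p = 1.64e-07). The muscle mutase Pgam2 rose too, with 5.48 ± 3.58 FPKM at P21 and 0.85 ± 0.0889 FPKM at P13 (log2 difference 1.63, adjusted p = 0.00187), beside the muscle markers given above. At P33 against P21 9 of the 32 fell and 0 rose, beside 7.17% of all genes lower and 2.87% higher. The falls were led by Pgam2, Fbp1 and Pcx.

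Of 15 tested genes of glycogen metabolism, 12 fell and 1 rose at P33 against adipocytes, beside 44.5% of all genes lower and 24% higher. After rescaling 11 fell and 1 rose, beside 4825 and 4188 of all 13815 genes. Gys2, the liver glycogen synthase, was listed at 0 in all 3 P33 libraries and averaged 18 ± 2.82 FPKM in adipocytes (SD, n = 3). The phosphorylase Pygl had 5.04 ± 1.26 FPKM at P33 and 83.3 ± 1.99 FPKM in adipocytes (log2 difference -3.82, adjusted p = 1.66e-12). At P21 against P13 7 rose and 1 fell, beside 36% of all genes higher and 7.04% lower. After rescaling 5 rose and 2 fell, beside 2212 and 2214 of all 13815 genes. Ppp1r3c, which targets a phosphatase to glycogen, had 24.5 ± 5.97 FPKM at P21 and 1.43 ± 0.147 FPKM at P13 (log2 difference 3.36, adjusted p = 7.86e-10). The brain phosphorylase Pygb had 30.3 ± 2.98 FPKM at P21 and 8.03 ± 0.594 FPKM at P13 (log2 difference 1.79, adjusted p = 5.88e-07). At P33 against P21 Ppp1r3c fell, with 8.39 ± 1.58 FPKM at P33 and 24.5 ± 5.97 FPKM at P21 (log2 difference -1.42, adjusted p = 4.09e-05).

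Of 19 regulators of glycolytic genes, 13 fell and 2 rose at P33 against adipocytes, beside 44.5% of all genes lower and 24% higher. After rescaling 11 fell and 4 rose, beside 4825 and 4188 of all 13815 genes. Mlxipl, the glucose-responsive factor ChREBP, had 0.54 ± 0.0361 FPKM at P33 and 18.7 ± 0.715 FPKM in adipocytes (log2 difference -3.68, adjusted p = 2.08e-12). Epas1, the hypoxia factor HIF-2α, had 6.32 ± 1.15 FPKM at P33 and 45.9 ± 2.7 FPKM in adipocytes (log2 difference -2.69, adjusted p = 1.44e-09). At P21 against P13 12 regulators rose and 2 fell, beside 36% of all genes higher and 7.04% lower. After rescaling 5 rose and 2 fell, beside 2212 and 2214 of all 13815 genes. On the deposited scale Epas1 led the rises, with 8.62 ± 0.839 FPKM at P21 and 1.70 ± 0.284 at P13 (log2 difference 1.83, adjusted p = 1.08e-06). Egln3, an oxygen-sensing prolyl hydroxylase, had 11.2 ± 1.51 FPKM at P21 and 4.45 ± 0.346 FPKM at P13 (log2 difference 1.15, adjusted p = 9.52e-06). In the sorted stages Myc, a growth factor-responsive activator of glycolytic genes, stood out at P10. It had 68.1 ± 8.22 FPKM at P10 and 19.6 ± 3.87 FPKM at P8 (log2 difference 1.76, adjusted p = 2.22e-05). At the next step it had 18.5 ± 3.11 FPKM at P13 and 68.1 ± 8.22 FPKM at P10 (log2 difference -1.83, adjusted p = 6.4e-06). At P21, where isolation also changed, Myc fell further to 3.11 ± 0.477 FPKM (log2 difference from P13 -2.24, adjusted p = 1.64e-07). The fibroblast and perichondrium markers given above were also higher in sum at P10 than at P8 and P13, and their part was not tested. Txnip, which restrains glucose uptake, moved the opposite way, with 14.1 ± 0.858 FPKM at P10 and 31.9 ± 1.73 FPKM at P8 (log2 difference -1.13, adjusted p = 2.52e-05). It then had 40.2 ± 4.81 FPKM at P13 and 14.1 ± 0.858 FPKM at P10 (log2 difference 1.45, adjusted p = 9.19e-07). Of 15 other genes that respond to hypoxia, 2 rose and 6 fell at P33 against adipocytes, beside 24% and 44.5% of all genes. After rescaling 5 rose and 5 fell, beside 4188 and 4825 of all 13815 genes. At P21 against P13 2 rose and 1 fell, beside 36% and 7.04% of all genes. After rescaling 1 rose and 4 fell, beside 2212 and 2214 of all 13815 genes. Bnip3, a hypoxia-induced gene of mitochondrial clearance, had 59 ± 4.04 FPKM at P21 and 19.8 ± 3.34 FPKM at P13 (log2 difference 1.54, adjusted p = 4.25e-06). At P33 it was lower again, with 30.4 ± 7.95 FPKM (log2 difference from P21 -0.97, adjusted p = 0.0016). Adipocytes had 292 ± 6.86 FPKM of Bnip3 (log2 difference of P33 -3.26, adjusted p = 9.43e-11). The collagen hydroxylase P4ha2 had 15.3 ± 0.352 FPKM at P21 and 37 ± 0.0603 FPKM at P13 (log2 difference -1.22, adjusted p = 1.38e-07).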

How the data were processed

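Gene expression was measured by bulk RNA sequencing in 18 libraries, 3 in each of 6 groups. The authors aligned the reads with STAR 2.4.2a to mm10, per the submitters' processing notes, and deposited one table of FPKM values for 46983 genes; the quantifier, the gene annotation and the use of strand are not stated in the labels or headers. The authors also deposited, per sample, the count of total reads and the alignment rate in percent. Deposited total counts ran over 12461965 to 27640142 reads and alignment rates over 73.19 to 84.44%. FPKM values are not counts, so no count test was run and no interval from counts is given.

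Values were analysed as log2(FPKM + 1) for the 13815 genes with at least 1 FPKM in 3 libraries, with limma 3.58.1 (trended empirical Bayes, one mean per group, all 18 libraries sharing the spread, R 4.3.3). The 7 comparisons were each adjusted by Benjamini-Hochberg over all 13815 genes and called at adjusted p under 0.05. The pipeline was tested on simulated data. Isozyme ratios were compared with exact permutation tests (scipy 1.17.1). Groups come from the sample labels. No 2 libraries held identical values. Median-of-ratios scaling, called rescaling in the report, divides FPKM by size factors over genes above 0 in every library. Other alternatives were a pseudocount of 0.1, no filter, a filter at 5 FPKM, only the 2 groups compared, the replicate number as a block and leaving out each library; leaving out the libraries highest in muscle markers and adding near-identical copies were chosen after seeing the data. Copies and shared exons were looked up by sequence and position in the GENCODE M21 annotation, which may differ from the one the authors used.

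Members and gene lists were chosen with earlier results of these data known. Values in each library are given for members averaging at least 100 FPKM in some group or called with a log2 difference of at least 1 either way; the other 6 are given by means or ranges. From each further list, up to 3 called genes with the largest difference are eligible to be named in a comparison.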

Additional observations from a re-analysis of the deposited data

How the results depend on the processing

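Of the members' results under planned settings other than leaving out a library, 731 kept direction and side of the threshold, 46 lost and 26 gained a call, and 5 turned. The 5 turned under median-of-ratios scaling: Gapdh at P33 against adipocytes (0.0136), Pdhb at P10 against P8 (0.0143), and Aldoa (-0.0892), Pdhb (-0.12) and Pdk3 (-0.41) at P21 against P13. With copies added, Eno1 at P13 against P10 turned and was called (0.64). Differences not called in either fit also turned: Eno1 and Pgk1 at P10 against P8, Eno1, Pgk1 and Pgam1 at P13 against P8, and Eno1 at P21 against P13. Members called at P10 against P8 (4) numbered 1 after rescaling and 1 with only both groups modelled. With only both groups modelled, 1 was called at P13 against P8 (2 in the full model) and 1 at P33 against P21 (9 in the full model), where fewer libraries estimate the spread. With 1 library left out, members called numbered 26 to 28 (P33 against adipocytes), 27 to 28 (P21 against adipocytes), 1 to 6 (P10 against P8), 10 to 14 (P13 against P10), 2 to 3 (P13 against P8), 17 to 20 (P21 against P13) and 7 to 10 (P33 against P21). The 10 isozyme pairs gave 0 calls for P33 alone and 0 to 10 with 1 library left out, 0 being those without an adipocyte library, when the smallest p is too large. Over the whole table, all genes called, P10 against P8, were 1525, 985 with no filter, 622 after rescaling and 351 with only both groups; all genes called, P13 against P8, were 581 and 347 with only both groups; all genes called, P33 against P21, were 1388 and 126 with only both groups. A filter at 5 FPKM, which tests fewer genes, gave 6189 for all genes called, P33 against adipocytes, and 6150 for all genes called, P21 against adipocytes. Without the libraries highest in muscle markers, Hk2 and Aldoa at P21 against P13 lost their calls as well, and Tkt gained one. With the replicate number as a block, 28, 29, 6, 13, 3, 21 and 11 members were called in the 7 comparisons in the order above. Same-numbered libraries correlated at -0.17 to 0.21 in their deviations, and in no comparison were all above 0.1. So few values cannot show whether the numbers pair the libraries, and the main fit used no pairing. Small differences in members near 1 FPKM are limited by the pseudocount, and depth behind an FPKM value is not given.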
